A study of Mus musculus with 24 samples.

Results

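The voltage-gated calcium and sodium channels were described by 34 genes: every gene with a probe set of exactly 1 symbol that is a pore-forming alpha-1, alpha-2-delta, beta or gamma subunit of the calcium channels or an alpha or beta subunit of the sodium channels, with Cacng8 not analysed here. They were 34 of the 18194 genes that had such a probe set, and carried 83 of the 45101 probe sets on the array. Where a gene had several, the probe set with the highest mean over all arrays stood for it. Total RNA was hybridised to 24 mouse expression arrays, 6 for each of 4 groups: hippocampus from animals labelled Low Freezing, hippocampus from animals labelled High Freezing, and amygdala from each of these. All mice came from a selection experiment on contextual fear conditioning, a test in which an animal freezes in a place where it was shocked, in descendants of C57BL/6J and A/J; sex, age and whether an array held 1 animal or a pool are not given in the sources used here. Each p-value therefore measures the spread between these arrays.

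Voltage-gated channels turn a change in membrane potential into a flow of ions. Sodium channels carry the rising phase of the action potential, and calcium channels couple it to transmitter release, dendritic signalling and gene transcription. The alpha subunit of each forms the pore and senses voltage, while the smaller subunits set how much channel reaches the membrane and how fast it opens and closes; several gamma subunits serve instead as transmembrane AMPA receptor regulatory proteins (TARPs), which traffic and gate glutamate receptors.

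Promoters are shown for neighbouring sodium beta genes and for a pair of alpha-2-delta genes, because the members of each pair had unlike regional differences; the windows run from 250 bases before to 50 after the annotated start, as RefSeq gives them on build GRCm38.p6. Scn4b (chr9:45138374-45138673, plus strand) and Scn2b (chr9:45117626-45117925, plus strand) lie next to each other; Cacna2d2 (chr9:107399630-107399929, plus strand) and Cacna2d1 (chr5:15934441-15934740, plus strand) are alpha-2-delta genes that differed between the regions in opposite directions. Capitals mark the GC box, GGGCGG or its reverse complement CCGCCC, where it occurred.
Scn4b: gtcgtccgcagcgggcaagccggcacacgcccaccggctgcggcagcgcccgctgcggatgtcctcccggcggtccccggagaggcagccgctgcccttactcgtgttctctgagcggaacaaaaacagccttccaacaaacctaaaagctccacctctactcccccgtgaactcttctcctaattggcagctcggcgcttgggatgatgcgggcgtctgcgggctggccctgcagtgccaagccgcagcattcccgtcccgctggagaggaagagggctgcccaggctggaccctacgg
Scn2b: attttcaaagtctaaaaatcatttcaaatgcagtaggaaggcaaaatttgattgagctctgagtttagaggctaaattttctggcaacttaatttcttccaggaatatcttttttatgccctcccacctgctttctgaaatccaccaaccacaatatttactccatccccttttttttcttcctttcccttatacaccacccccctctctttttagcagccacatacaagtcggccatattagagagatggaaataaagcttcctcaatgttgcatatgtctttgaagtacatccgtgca
Cacna2d2: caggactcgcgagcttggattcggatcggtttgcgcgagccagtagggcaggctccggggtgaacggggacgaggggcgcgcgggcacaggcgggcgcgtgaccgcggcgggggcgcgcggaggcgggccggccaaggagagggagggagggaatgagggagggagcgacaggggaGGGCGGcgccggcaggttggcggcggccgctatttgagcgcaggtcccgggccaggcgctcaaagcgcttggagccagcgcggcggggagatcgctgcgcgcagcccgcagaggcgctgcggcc
Cacna2d1: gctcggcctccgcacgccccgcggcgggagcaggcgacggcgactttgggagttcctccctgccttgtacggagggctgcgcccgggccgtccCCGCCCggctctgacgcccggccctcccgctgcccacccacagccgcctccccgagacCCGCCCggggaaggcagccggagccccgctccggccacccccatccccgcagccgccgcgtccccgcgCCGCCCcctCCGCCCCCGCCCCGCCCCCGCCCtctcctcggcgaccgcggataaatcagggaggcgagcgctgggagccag
The Scn2b window held 2 CpG dinucleotides and 38.3% G and C, against 26 CpGs and 66.3% in the window of its neighbour Scn4b, and neither held a GC box. The Cacna2d1 window had 7 GC boxes, some of them overlapping, at 80% G and C, and the Cacna2d2 window had 1 at 75.7%. Promoters were matched by symbol for 26 of the 34 genes, with 36 windows in all; Scn3b, Cacng4, Cacng1, Cacna2d4, Scn3a, Cacna1h, Cacna1g and Cacna1a were unmatched. Of these windows 14 held a GC box (38.9%), beside 35.7% of all 32851 windows of that length. None held the cAMP response element TGACGTCA, found in 1.79% of all windows, and 6 held the E-box CAGATG or its complement CATCTG (16.7%, beside 17.2% of all). These letters are a description of the windows and not of binding.

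Of the 34 genes, 27 were bright enough to be tested. The 7 that were not were the retinal L-type gene Cacna1f, the skeletal muscle genes Cacna1s, Cacng1 and Cacng6, and the sodium alpha genes Scn9a, Scn10a and Scn11a, best known from peripheral sensory neurons. Their means over the 24 arrays ran from 6.29 intensity units (linear array brightness) for Scn10a to 21.9 for Scn9a, below the lowest mean kept, 23.35. Just inside that limit lay Cacna2d4, at 25.4, and Scn7a, at 29.6. Array medians were 36.9 to 43.6 intensity units, and arrays of 1 group correlated between 0.969 and 0.983 over the probe sets kept.

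The first comparison asked how the channels differed between the amygdala and the hippocampus, averaged over both freezing groups. Of the 27 tested genes 24 differed at an adjusted p under 0.05, 10 of them higher in the amygdala and 14 lower. Cacna2d4 had a hippocampal mean under the lowest mean kept and so was tested only through its amygdala level; without it 23 of 26 genes differed, 9 of them higher. The background was high: 51.2% of all 27022 probe sets passed the same test, 27.1% as higher and 24.1% as lower; with only the brightest probe set of each gene it was 56.3%, 31.7% as higher and 24.6% as lower. A difference of at least 1.5-fold as well was seen for 11 of the genes, 4 higher and 7 lower (40.7%), beside 14.6% of all probe sets (8.43% higher, 6.13% lower) and 16.4% of the brightest ones. The median size of the log2 difference, regardless of sign, was 0.52 over the 27 genes and 0.20 over all probe sets. The median signed log2 difference was -0.17 for the genes and 0.02 for all probe sets. The ranges of the 12 amygdala and 12 hippocampal arrays did not overlap for 4 genes that were higher (7.16% of all probe sets did the same) and for 9 that were lower (6.01%). All differences here are amygdala minus hippocampus on the log2(intensity + 16) scale, tested with limma and Benjamini-Hochberg adjustment over all probe sets. In bulk tissue, fewer cells of a type and less RNA per cell cannot be told apart.

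**Figure D1:**
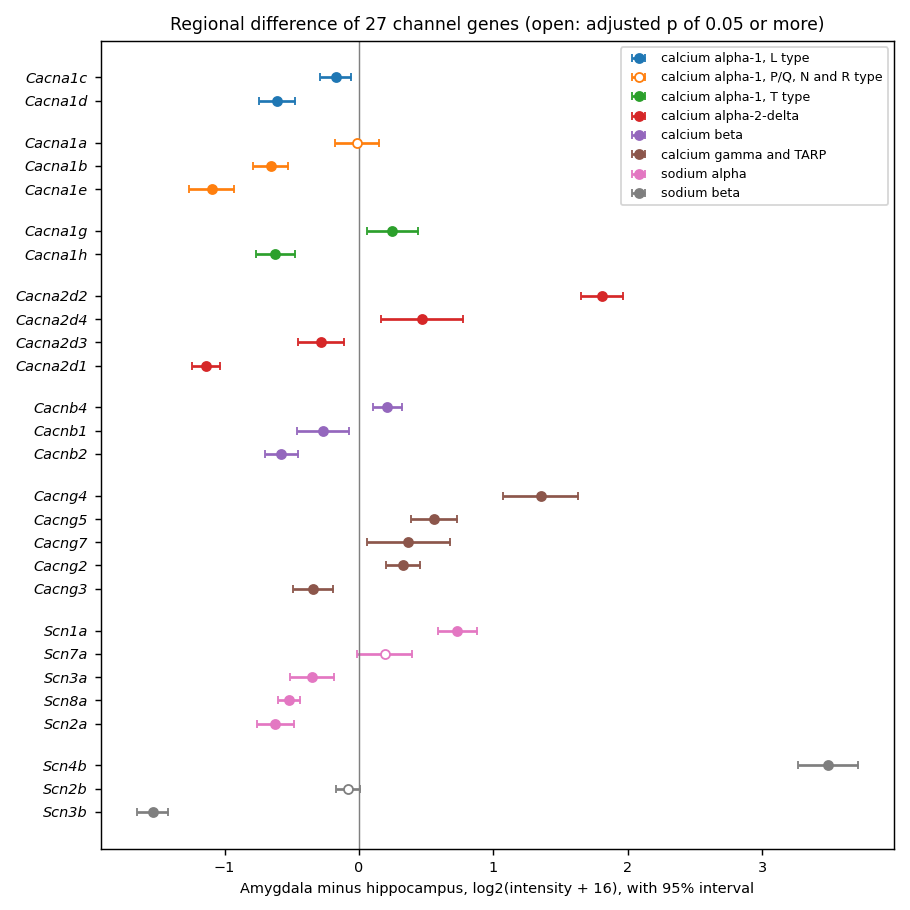
Difference between amygdala and hippocampus (log2 of intensity + 16, horizontal axis) for the 27 tested genes, ordered by subunit class, with bars for the 95% interval and open points for an adjusted p of 0.05 or more. Scn4b lies far to the right at 3.49, Scn3b is the lowest at -1.54, and every subunit class except the L-type and the P/Q, N and R-type genes has members on both sides of 0. Cacna2d4 is filled although it passed the brightness filter only through its amygdala level.

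The sodium channel beta subunits, single-pass membrane proteins that modulate gating and adhesion, held both extremes of the family. Scn4b encodes beta-4, known for its role in resurgent sodium current. Its intensity was 43.2 at the lowest, 58.4 at the median and 73.9 at the highest of the 12 hippocampal arrays, and 540.1, 853 and 1206 in the amygdala. Every amygdala array was therefore several times above every hippocampal one. The mean rose from 57.7 ± 9.61 to 831 ± 212 (SD, n = 12 each), a log2 difference of 3.49 (SE 0.109, limma adjusted p = 1.14e-20) or 11.2-fold on that scale.

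Scn3b, which encodes beta-3, went the other way. The hippocampal arrays read 1685, 1828 and 2075 (lowest, median, highest) and the amygdala arrays 502, 637 and 782, again without overlap. The log2 difference was -1.54 (SE 0.0577, limma adjusted p = 4.77e-19), 2.90-fold lower in the amygdala, and a further Scn3b probe set gave -1.86.

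Scn2b, the gene of the disulfide-linked beta-2 subunit, overlapped between the regions at its brightest probe set, with 1473 ± 91.8 intensity units in the hippocampus and 1393 ± 107 in the amygdala (SD, n = 12 each). Its log2 difference of -0.08 (95% interval -0.17 to 0.00) did not pass (limma adjusted p = 0.109), but with arrays centred on their medians it was -0.16 and did (adjusted p = 0.00449). A dimmer Scn2b probe set read 195, 265 and 366 (lowest, median, highest) in the hippocampus and 388, 534 and 678 in the amygdala, with no overlap between the regions. That probe set was higher in the amygdala by 0.91 (limma adjusted p = 2e-08), so the probe sets of this gene do not give 1 direction, and the mean of all of them gave 0.23 (adjusted p = 0.000322). The third Scn2b probe set, at -0.14, did not pass. Scn2b and Scn4b lie next to each other on chromosome 9 in the RefSeq gene order, and at their brightest probe sets differed between the regions by -0.08 and 3.49.

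**Figure D2:**
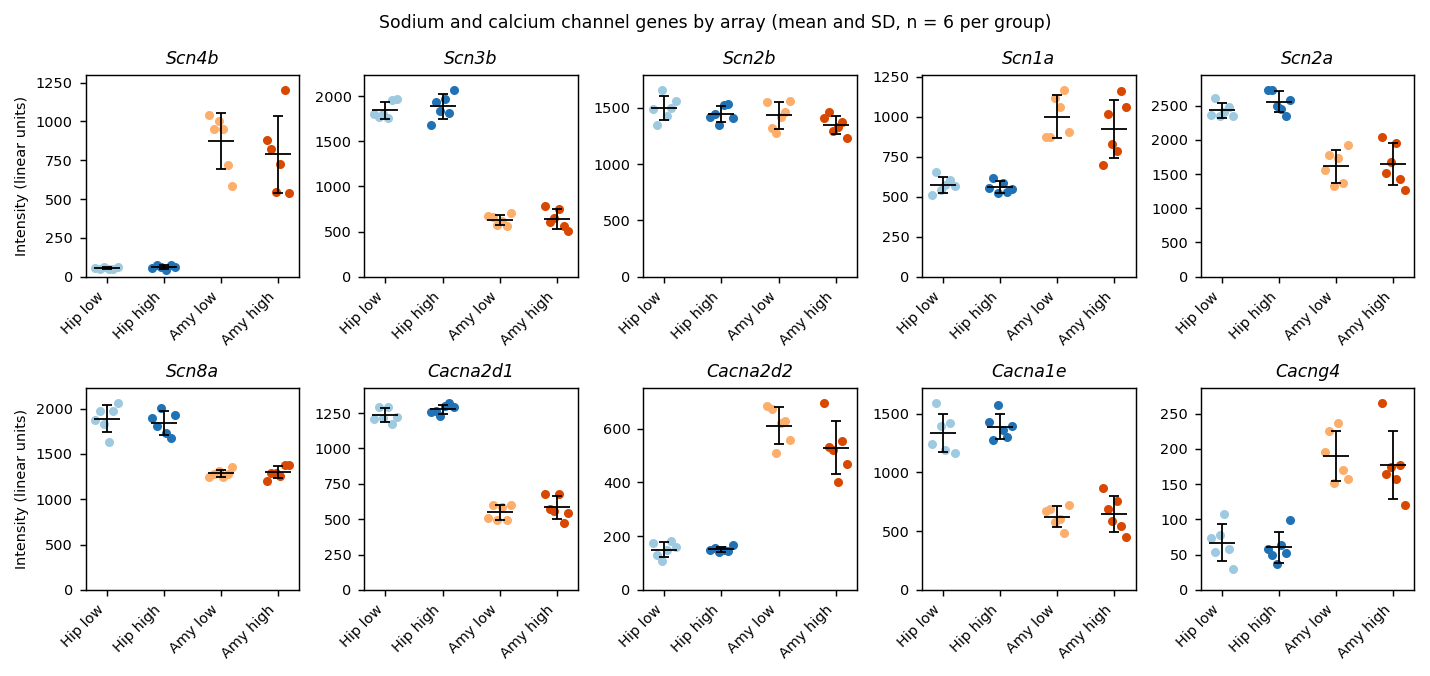
Intensity (linear units, vertical axes from 0) of 10 genes on each array by group, with 6 arrays a group and bars for the mean and SD; Hip is hippocampus, Amy amygdala, low and high the freezing label. Scn4b, Scn1a, Cacna2d2 and Cacng4 are higher and Scn3b, Scn2a, Scn8a, Cacna2d1 and Cacna1e lower in the amygdala without overlap between regions, Scn2b overlaps, and no gene separates low from high freezing.

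Among the sodium channel alpha subunits, 5 of the 8 genes were tested; 1 rose in the amygdala, 3 fell and 1 did not pass. Scn1a encodes Nav1.1, prominent in fast-spiking interneurons. Its hippocampal arrays read 509, 560.2 and 652 intensity units (lowest, median, highest) and its amygdala arrays 697, 959.5 and 1170.3. The ranges did not overlap, and the log2 difference was 0.73 (SE 0.0696, limma adjusted p = 3.75e-10) or 1.66-fold higher in the amygdala, with 1.09 and 0.68 at its other probe sets. Scn2a encodes Nav1.2, the channel of the proximal axon initial segment and unmyelinated axons of excitatory neurons. It ran from 2348 over 2472 to 2738 in the hippocampus and from 1263 over 1622 to 2047 in the amygdala. All amygdala arrays lay below all hippocampal ones, by -0.62 (SE 0.0666, limma adjusted p = 4.15e-09), 1.54-fold. Scn8a encodes Nav1.6, the channel of nodes of Ranvier and the distal initial segment. It read 1634, 1881 and 2063 in the hippocampus and 1204, 1285 and 1382 in the amygdala. Again the ranges were apart, with a log2 difference of -0.52 (SE 0.0397, limma adjusted p = 3.25e-12), and its other probe sets gave -0.51, -0.54 and -0.89.

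Scn3a, the gene of the Nav1.3 channel of developing neurons, fell by 0.35 (adjusted p = 0.000473), though its arrays overlapped between regions. Scn7a, which encodes the sodium-level sensor Nax, read 26.5 ± 5.82 in the hippocampus and 32.7 ± 7.72 in the amygdala (SD, n = 12 each), near the brightness limit. Its difference of 0.19 did not pass (limma adjusted p = 0.109, 95% interval -0.01 to 0.39) and its other probe set gave -0.08. Scn3a, Scn2a, Scn1a, Scn9a and Scn7a sit in a cluster on chromosome 2, where Scn3a is next to Scn2a and Scn9a lies between Scn1a and Scn7a. Scn1a was thus higher in the amygdala while Scn2a and Scn3a of the same cluster were lower. Chromosome 2 carried 8 of the 34 genes, chromosome 9 carried 6 and chromosome 11 carried 5.

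The alpha-2-delta subunits are extracellular proteins that raise the surface density of calcium channels and include the binding sites of gabapentin. Of their genes 1 rose in the amygdala and 2 fell, beside Cacna2d4, which passed the brightness filter only through its amygdala level. Cacna2d2 ran from 109 over 149.6 to 182 intensity units in the hippocampus and from 403 over 556 to 696 in the amygdala. The regions did not overlap, and the log2 difference was 1.81 (SE 0.0763, limma adjusted p = 5.68e-18), 3.50-fold higher in the amygdala. Cacna2d1 was the reverse, at 1173, 1261 and 1323 in the hippocampus and 472, 567 and 677 in the amygdala. The highest amygdala array was well below the lowest hippocampal one, and the log2 difference was -1.14 (SE 0.0508, limma adjusted p = 2.01e-17), 2.20-fold lower. Its other probe sets were lower as well, at -0.92, -1.19, -0.25 and -0.26, the last of which did not pass (adjusted p = 0.0577). Cacna2d3 fell by 0.28 (adjusted p = 0.00511) with overlapping arrays. Cacna2d4, best known from the retina, read 19.2 ± 9.57 in the hippocampus, under the lowest mean kept, and 31.7 ± 10.4 in the amygdala (SD, n = 12 each). It was in the test only because of its amygdala level, so its difference of 0.47 is given as a value without a test.

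Among the pore-forming genes of the P/Q, N and R-type calcium channels, which trigger transmitter release at presynaptic terminals, 2 of 3 were lower in the amygdala. Cacna1e, the R-type gene, read 1166, 1378 and 1592 intensity units in the hippocampus and 448, 638 and 869 in the amygdala. These ranges were apart, and the log2 difference was -1.10 (SE 0.0814, limma adjusted p = 1.88e-12), 2.14-fold lower. Cacna1b, the N-type gene, went from 559 ± 59.3 to 350.2 ± 50.2 (SD, n = 12 each), a difference of -0.66 (adjusted p = 5.2e-10) without overlap. Cacna1a, the P/Q-type gene, read 84.9, 111 and 145 (lowest, median, highest) in the hippocampus and 82.9, 115 and 148 in the amygdala at its brightest probe set. The regions overlapped throughout, and the log2 difference was -0.01 (95% interval -0.18 to 0.15, limma adjusted p = 0.894). Another Cacna1a probe set fell from 79.1 ± 11.0 to 56.9 ± 11.9, by 0.39 (adjusted p = 0.000171), and the mean of the gene's probe sets gave -0.19 (adjusted p = 0.0248).

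The tested L-type genes, whose channels open in dendrites and signal to the nucleus, were both lower in the amygdala. Cacna1d (Cav1.3) went from 281 ± 30.8 intensity units to 179 ± 27.4 (SD, n = 12 each), by -0.61 (limma adjusted p = 4.19e-09), with no overlap between regions. Cacna1c (Cav1.2) fell by 0.17 (adjusted p = 0.0118) with overlap. The T-type genes, whose channels open near rest and support burst firing, were split. Cacna1h fell from 377 ± 39.6 to 241 ± 34.3, by 0.62 (limma adjusted p = 1.1e-08) without overlap, whereas Cacna1g rose by 0.25 (adjusted p = 0.0255) with overlap. The Cacna1g call was lost without the amygdala high freezing array 12 (0.20, adjusted p = 0.0556).

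The beta subunits, cytoplasmic proteins that bring calcium channels to the membrane, all passed the test, and none differed by 1.5-fold. Cacnb2 was lower in the amygdala by 0.58 (adjusted p = 2.2e-09), with 341 ± 33.8 intensity units in the hippocampus and 224 ± 25.5 in the amygdala (SD, n = 12 each) and no overlap. Cacnb1 was lower by 0.26 (adjusted p = 0.0201). Cacnb4 was higher by 0.21 (adjusted p = 0.00108), from 779 ± 81.8 to 903 ± 85.6, with overlap.

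In the gamma subunit and TARP class 4 of the 5 tested genes were higher in the amygdala and 1 was lower. The TARP Cacng4 read 30.0, 58.2 and 108 intensity units (lowest, median, highest) in the hippocampus and 120.0, 172 and 266 in the amygdala. The ranges were close but apart, and the log2 difference was 1.35 (SE 0.136, limma adjusted p = 1.16e-09), 2.55-fold, with 1.21 at its other probe set. Cacng5, its neighbour on chromosome 11, rose by 0.56 (adjusted p = 1.69e-06) from 104 ± 15.2 to 161 ± 28.1. Cacng2, the stargazin gene, rose by 0.32 (adjusted p = 5.83e-05), but its difference was 0.15 and did not pass when its probe sets were averaged (adjusted p = 0.173), and 1 of its other probe sets gave -0.12. Cacng3 was the exception and fell by 0.34 (adjusted p = 0.000248).

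Cacng7 rose by 0.37 (adjusted p = 0.0428), a call that was lost in 15 of the 24 fits that each left out 1 array, with adjusted p from 0.0525 to 0.0894. Those arrays were hippocampus low freezing 1, 4 and 6, hippocampus high freezing 7, 10 and 12, amygdala low freezing 2, 3, 5 and 6 and amygdala high freezing 7, 8, 9, 10 and 12.

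Beyond the brightest probe sets, 16 of the tested genes had 31 other probe sets above the brightness limit. Of these, 28 had the sign of the brightest one in the regional comparison. Where both passed the test the signs were the same in 23 of 23 cases. The 3 with the opposite sign belonged to Scn2b, Cacng2 and Scn7a.

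**Figure D3:**
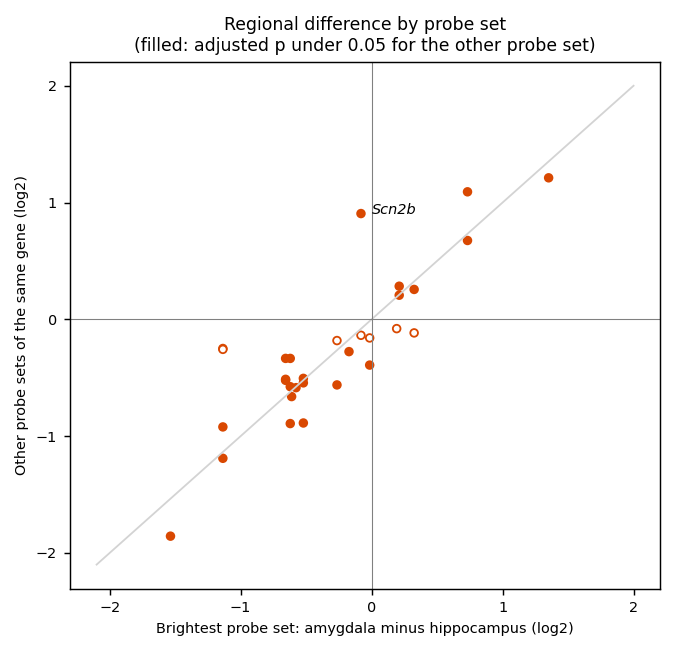
Regional log2 difference (amygdala minus hippocampus) of the 31 other probe sets (vertical axis) against that of the brightest probe set of the same gene (horizontal axis), with filled points for an adjusted p under 0.05 and a line of equality. Most points follow the line, and the Scn2b probe set at 0.91 stands apart from its brightest one at -0.08.

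Genes that bind, traffic or modulate these channels were read from a list of 36, of which 25 were tested. Over all genes, 31.7% of the brightest probe sets passed as higher in the amygdala and 24.6% as lower. Of the 25 partner genes 6 were higher in the amygdala, 12 were lower and 7 did not pass, with a median log2 difference of -0.10. Among those lower were Fgf13, an intracellular regulator of sodium channels (-1.15), Nedd4l, a ubiquitin ligase that removes channels from the membrane (-0.82), and Stac, which binds L-type channels (-0.75). Among those higher were Nfasc, the neurofascin that anchors channels at the initial segment and node (0.94), the pacemaker channel gene Hcn2 (0.94) and the release-site gene Rims3 (0.71).

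Markers of cell types and neighbouring structures differed between the dissections as well. Their counts stand beside the same background of 31.7% higher and 24.6% lower over the brightest probe sets of all genes. Read against the labelled regions, 5 of 5 dentate granule cell genes and 4 of 5 CA field genes were lower in the amygdala (the fifth was higher), and 6 of 6 tested striatal and central amygdala genes, Penk and Drd1 among them, were higher. The summed intensity of those 6 ran from 368 to 486 over the hippocampal arrays and from 2916 to 8309 over the amygdala arrays. Excitatory neuron genes were lower for 5 of 6 tested, with summed levels of 4875 to 5450 in the hippocampus and 1056 to 2638 in the amygdala; the exception, Slc17a6, was higher. Inhibitory neuron genes were higher for 4 of 5, with sums of 3660.4 to 4177 and 7611 to 8850.3, and parvalbumin interneuron genes for 2 of 3, with sums of 1516 to 1731 and 2322 to 4860 (1 did not pass in each list). Oligodendrocyte genes were higher for 7 of 7, summing to 13699 to 18679 in the hippocampus and 34672 to 48096 in the amygdala, and choroid plexus genes for 5 of 5, summing to 1869 to 13336 and 13773 to 20182. Of the other lists, higher in the amygdala were 3 of 3 oligodendrocyte precursor, 4 of 5 astrocyte (1 was lower), 5 of 6 microglial, 1 of 4 endothelial and 3 of 5 thalamus and hypothalamus genes (1 was lower), and the 1 tested skeletal muscle gene was lower. The part of these cell types in the regional differences of the channel genes was not tested.

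Channel levels were more variable among amygdala arrays. The SD of log2 values within groups was larger in the amygdala than in the hippocampus for 21 of the 27 genes (77.8%), beside 54.9% of all probe sets, and the median ratio of the SDs was 1.25 beside 1.05. Cacna2d3 had a ratio of 3.79, Cacna2d1 of 3.54 and Scn2a of 3.22, while Scn8a was steadier in the amygdala with a ratio of 0.568. The amygdala arrays of Cacna2d3 were cut at their widest gap on the log2 scale. Below it lay 6, between 562 and 744 intensity units, with 2 low and 4 high freezing arrays. Above it lay 6, between 956 and 1068, with 4 low and 2 high. Between 744 and 956 there was no array. Any set of values has a widest gap, and its size in other genes was not examined.

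Across all 12 amygdala arrays 54 relations were computed, each of the 27 genes against the striatal and central amygdala sum and against the excitatory neuron sum; these sums correlated with each other at -0.934, so they are not independent measures. Cacna2d3 had the largest r of the 54, 0.894 with the striatal and central amygdala sum (adjusted permutation p = 0.00216). Its rho with that sum was 0.923 (adjusted permutation p = 0.00486). Without the 2 farthest arrays its r was 0.871, and within low and high freezing it was 0.89 and 0.88. With the excitatory sum its r was -0.794 (adjusted permutation p = 0.0158). Because of the gap in the Cacna2d3 arrays, these values do not tell a step from a gradual relation. Of the other genes, Cacna1h had r of -0.85 with the excitatory sum (permutation p = 0.00088, adjusted p = 0.0158) and rho of -0.79 (p = 0.00354, adjusted p = 0.0637). Without the 2 arrays farthest from the median of the sum r was -0.771. With the striatal and central amygdala sum Cacna1h had r of 0.778 (adjusted permutation p = 0.0495), which dropped to 0.524 without the 2 farthest arrays. Scn4b had r of 0.716 and rho of 0.762 with that sum, with adjusted permutation p of 0.0509 and 0.0738. Its r was 0.577 without the 2 farthest arrays.

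**Figure D4:**
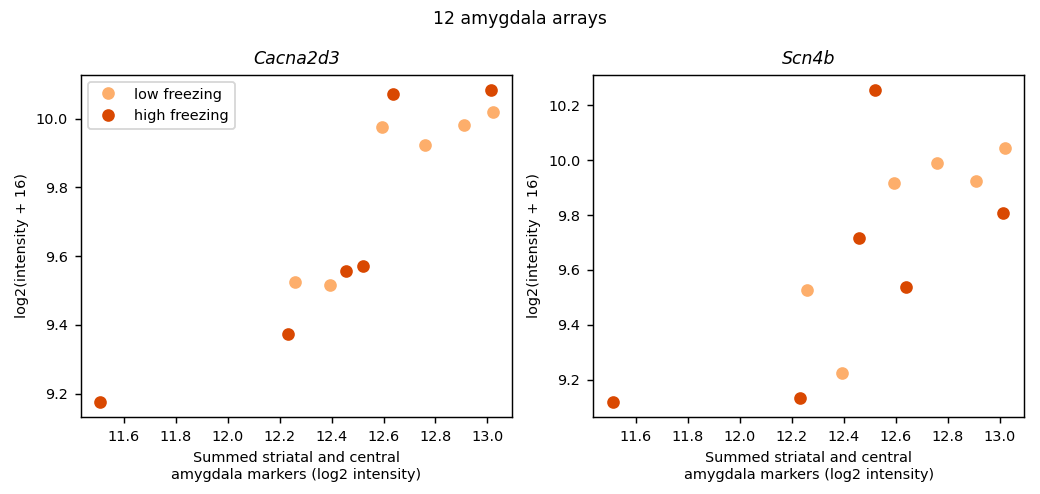
Level of Cacna2d3 and Scn4b (log2 of intensity + 16, vertical axes) against the log2 sum of the striatal and central amygdala markers (horizontal axes) on the 12 amygdala arrays, coloured by freezing label. Cacna2d3 leaves a gap between its lower and upper 6 arrays, and both freezing labels occur on either side of it.

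The study's own contrast, high against low freezing, was read within each region. In the hippocampus none of the 27 genes passed limma's test at an adjusted p under 0.05, where 0.0518% of all probe sets did; at an unadjusted p under 0.05 it was 2 genes, where 11.8% of all probe sets were. In the amygdala none of the 27 passed, beside 0.0555% of all probe sets, and 4 genes had an unadjusted p under 0.05, where 10.7% of all probe sets did. Over alternative ways of processing, the genes with an unadjusted limma p under 0.05 numbered 1 to 3 in the hippocampus and 0 to 6 in the amygdala. The 0 came with the mean of each gene's probe sets. The median log2 difference, high minus low, was 0.01 in the hippocampus and -0.03 in the amygdala, and 15 and 11 of the genes were above 0. No gene had freezing groups without overlap in either region, where 0.452% and 0.366% of all probe sets were apart as higher and lower in the hippocampus and 0.326% and 0.226% in the amygdala. Scn4b, with the largest regional difference, had a freezing difference of 0.13 (95% interval -0.19 to 0.45) in the hippocampus and -0.18 (-0.49 to 0.14) in the amygdala.

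The smallest p in the hippocampus was that of Cacng7, with 74.8, 106 and 124 intensity units (lowest, median, highest of 6) in low freezing arrays and 23.9, 64.2 and 114 in high freezing ones. The groups overlapped, and the log2 difference was -0.60 (95% interval -1.03 to -0.16, limma adjusted p = 0.248). Cacna1b read 497, 613 and 666 in low and 491, 515 and 566 in high freezing arrays, a difference of -0.19 (limma adjusted p = 0.414). The next were Cacnb4 at 0.12, Cacna1d at -0.12 and Cacnb1 at -0.15, with limma adjusted p of 0.529, 0.651 and 0.718. With 1 array left out these ranged from 0.06 to 0.16 for Cacnb4, from -0.16 to -0.07 for Cacna1d and from -0.22 to -0.04 for Cacnb1.

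In the amygdala the smallest p was that of Cacna1d, whose low freezing arrays read 186, 195 and 212 and whose high freezing arrays read 128, 161 and 196. The ranges overlapped at their edge, and the log2 difference was -0.28 (95% interval -0.47 to -0.09, limma adjusted p = 0.252). With the mean of its probe sets the Cacna1d difference was -0.01. Cacnb4 read 958 ± 41.0 in low and 848 ± 84.5 in high freezing arrays (SD, n = 6 each), a difference of -0.18 (limma adjusted p = 0.364). Cacnb1 read 129 ± 15.6 and 167 ± 34.5, a difference of 0.32 (limma adjusted p = 0.369). Other probe sets above the brightness limit gave -0.04 and -0.08 for Cacnb4, 0.05 and 0.17 for Cacnb1 and -0.04 for Cacna1c. At their brightest probe sets Cacna1c at -0.17 and Cacna1g at 0.26 followed, with limma adjusted p of 0.452 and 0.482. With 1 array left out Cacna1g ranged from 0.17 to 0.37.

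**Figure D5:**
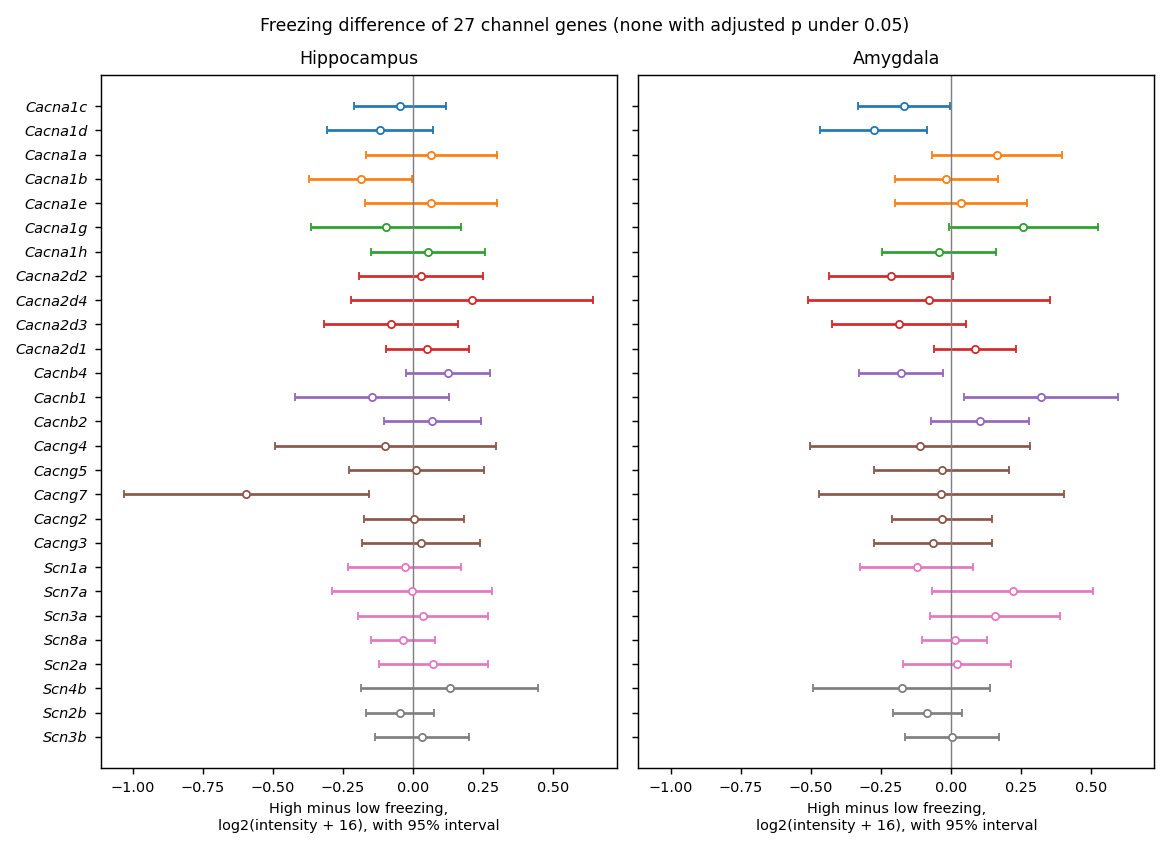
High minus low freezing difference (log2 of intensity + 16, horizontal axes) of the 27 tested genes in the hippocampus and in the amygdala, with bars for the 95% interval. The farthest point from 0 is Cacng7 in the hippocampus at -0.60, with an adjusted p of 0.248.

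Whether the freezing difference itself differed between the regions was tested as an interaction. None of the 27 genes and 0 of all probe sets (0%) passed limma's test, and 2 genes had an unadjusted p under 0.05, where 6.06% of all probe sets did. The smallest p was that of Cacnb4, whose difference, amygdala minus hippocampus, was -0.30 (95% interval -0.51 to -0.09, limma adjusted p = 0.772). Cacnb1 followed with 0.47 (limma adjusted p = 0.814), then Cacna1g with 0.36 and Cacng7 with 0.56 (both 0.837) and Cacna2d2 with -0.24 (0.855). With 1 array left out Cacng7 ranged from 0.36 to 0.72. The channel partner list likewise had 0 of 25 genes past limma's threshold for freezing in either region. Of the other probe sets of the channel genes, 20 of 31 had the sign of the brightest one for freezing in each region, and 13 of 31 for the interaction. A dimmer Scn2a probe set had 0.29 for freezing in the amygdala (limma adjusted p = 0.243). A dimmer Scn8a probe set had 0.35 for the interaction (limma adjusted p = 0.772). Each had a smaller unadjusted p than any brightest probe set of the channel genes in that comparison, and neither passed.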

How the data were processed

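The authors deposited 1 linear intensity per probe set and array, computed with software not given in the sources used here. After trimming 2% at each end every deposited array had a mean intensity of 150. No further normalization was applied. Values were tested as log2(intensity + 16), so that folds understate changes of dim probe sets. Before the test 64 control probe sets and the dimmest 40% by mean log2(intensity + 16) over all arrays were left out. This kept 27022 probe sets, with a lowest linear mean of 23.35. limma 3.58.1 in R 4.3.3 fitted 1 mean per group to all 24 arrays with an intensity trend (20 residual degrees of freedom). The two-sided p-values were adjusted by Benjamini-Hochberg over the kept probe sets, with a threshold of 0.05; the fit was tested on simulated data. Correlations used numpy 2.4.6 and scipy 1.17.1 with 100000 permutations. Platform annotation gave 1 symbol to 34958 probe sets, several to 932 and none here to 9211. RefSeq tables of GRCm38.p6 gave promoters and gene order. The members, marker lists and partner list were chosen with earlier results of these data known. Genes given in full were those called with at least 1.5-fold regional difference, up to 2 more per class by smallest p, and the 5 smallest p-values for freezing and the interaction; other members were added as values to account for all of them. Alternatives changed the offset, scaling, filter, variance prior, array weights, replicate block, probe set choice, separate fits by region and each array in turn. Arrays have no read depth; their number limits the precision.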

Additional observations from a re-analysis of the deposited data

Results flagged for a closer look

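Over 34 genes in 4 groups, 136 sets of 6 values were examined for 1 array far from the other 5, by the gap to the nearest array as a share of the whole range (Dixon's test). There were 9 such sets, 6.62%, where chance gives about 5%. Gap and range were taken on the log2 scale used for the tests, while the intensities printed beside the shares are linear. Of the tested genes, Cacng5 in the amygdala had 1 high freezing array (12) at 227 intensity units and the rest from 134.7 to 152 (share 0.774). Cacng3 in the hippocampus had 1 low freezing array (2) at 165 and the rest from 203 to 225 (0.661). Cacnb1 in the amygdala had 1 low freezing array (2) at 158 and the rest from 114 to 129 (0.636). Cacna2d4 in the hippocampus had 1 high freezing array (10) at 2.15 and the rest from 18.2 to 34.0 (0.626).

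The others were genes below the brightness limit. Cacna1f in amygdala low freezing array 1 read 4.66 against 20.3 to 28.0 (0.745), and Cacng1 in amygdala low freezing array 6 read 2.84 against 13.7 to 22.8 (0.631). Cacng6 in hippocampus low freezing array 2 read 26.3 against 10.8 to 15.6 (0.640). Scn10a in amygdala high freezing array 11 read 17.2 against 0.926 to 5.15 (0.669). Scn9a in hippocampus low freezing array 3 read 3.61 against 11.2 to 16.8 (0.639).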

How the results depend on the processing

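The count of 24 regional calls ranged from 22 to 25 over the alternatives, with 8 to 11 higher, 14 to 15 lower and 9 to 14 at 1.5-fold or more; freezing and interaction counts were 0 under each of them, while calls over all probe sets ranged from 0 to 33 for freezing in the hippocampus and from 0 to 56 in the amygdala. Of the 24 called genes 21 kept call and direction in each alternative that tested them, and 0 changed sign. The 24 and the 21 include Cacna2d4, which passed the brightness filter only through its amygdala level and was not tested without the dimmest 60%. Cacng7 also lost its call under quantile normalization (adjusted p = 0.0862), median centring (0.108), no filter (0.0625), no intensity trend (0.056), a robust prior (0.0527) and array weights (0.0542), and Cacna1g under quantile normalization (0.0609) and median centring (0.116). The uncalled Cacna1a difference changed sign without 1 of 5 arrays, where it ran from 0.0020 to 0.026, and over all single-array omissions from -0.051 to 0.026. The uncalled Scn2b difference was 0.23 with the mean of the gene's probe sets. Median centring left 5580 higher of 14185 called probe sets (39.3%) in place of 7310 of 13832 (52.8%), with 8 of the channel genes higher and 15 lower. The numbers 1 to 12 recur in both regions, but none of the 12 same-numbered array pairs deviated together with r over 0.1 (-0.079 to 0.087, own number best in 5), so they were not taken as pairs; with the replicate number as a block 24 of the channel genes were called, and 0 in the freezing and interaction comparisons. Dim members (Cacna2d4, Scn7a) are limited by signal near the brightness limit.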
